A study of Mus musculus with 12 samples.

Results

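The major urinary proteins (MUPs) are small lipocalins, secreted proteins with a barrel-shaped pocket that carries volatile ligands. In the mouse they are made mainly by hepatocytes, released into blood, filtered by the kidney and excreted in urine, where they hold and release pheromones. Adult males make far more of them than females, and hepatic Mup transcription is known to depend on the male pattern of growth hormone pulses acting through the growth hormone receptor and STAT5B, with thyroid hormone and glucocorticoid as further inputs. Described here are 10 genes of this family, Mup1, Mup3, Mup7, Mup10, Mup11, Mup15, Mup17, Mup19, Mup20 and Mup21, which were the rows of the count table with these symbols, 10 of 55357 genes in the table. These genes had been picked for their low levels in groups other than WT chow, so their differences from WT chow are given as descriptions, without a test or a count of calls.

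Liver RNA of 12 male C57BL/6J mice was sequenced in a study of hepatocyte PPARα and steatotic liver disease. All mice carried PPARα fl/fl alleles. The mice called KO also carried an AlbuminCre Tg/+ transgene, whose albumin promoter removes Ppara in hepatocytes and leaves it in the other liver cells, and those called WT were AlbuminCre +/+. Diets started at 7 weeks of age and lasted 6 weeks, to 13 weeks, with either chow or CDAHFD, a choline-deficient, amino acid-defined, high fat diet used to produce steatohepatitis. The groups were WT chow (n = 4), WT CDAHFD (n = 3), KO chow (n = 2) and KO CDAHFD (n = 3), each library being labelled as a separate mouse. Total counts ran from 29906785 to 43551003 per library.

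Ppara itself, the targeted gene, was at 120.1, 96.2, 237.8 and 226.1 counts per 1000000 counts (CPM, with library sizes scaled by TMM) in WT chow, at 59.5, 75.5 and 73.5 in WT CDAHFD, at 14.4 and 38.7 in KO chow and at 36.3, 20.7 and 51.9 in KO CDAHFD. Each KO library was below each WT library of either diet. On a wider scale the KO chow libraries stood nearer to the CDAHFD libraries than to WT chow: 39.0% of 17358 tested genes were called different between KO chow and WT chow and 6.12% between KO chow and WT CDAHFD. Marker genes of other cells moved too: the summed CPM of 10 macrophage markers was 300.8 to 556.4 in WT chow and 1146 to 2696 in the other groups, and that of 6 cholangiocyte markers was 46.4 to 79.5 against 166.2 to 887.5. Not every marker rose: Timd4, a marker of resident Kupffer cells within the macrophage list, was at 9.73 CPM on average for WT chow, 0.411 for WT CDAHFD, 15.6 for KO chow and 1.46 for KO CDAHFD. The summed CPM of 6 endothelial markers was 179.9 to 283.2 for WT chow, 117.8 to 161.3 for WT CDAHFD, 165.4 to 246.7 for KO chow and 117.4 to 213.5 for KO CDAHFD. The part of other cells in the Mup values was not tested. In whole liver, fewer hepatocytes and less RNA per hepatocyte cannot be told apart.

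All 10 genes lie in a single cluster on chromosome 4 (GRCm38, 59956804 to 62150863 in GENCODE M21), which spans 2.19 Mb and holds 22 Mup genes and 26 Mup pseudogenes. The genes described fall into 2 sets by sequence. Mup1, Mup7, Mup10, Mup11, Mup15, Mup17 and Mup19, called central members here, had coding sequences 98.4% to 99.4% identical in each of 21 pairs. Mup20, Mup3 and Mup21 stand next to one another at the distal end, starting at 62050234, 62083476 and 62147932, and were 82.2% to 91.4% identical to the central members. Mup3 and Mup21 were 94.8% identical to each other. Mup20 encodes darcin, the male urinary pheromone that attracts females.

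The sequences below show how closely the transcripts resemble each other and so how far a read can be placed. Each line is the same stretch of 60 coding bases, 5′ to 3′, read from the GENCODE M21 transcripts of GRCm38 (all on the minus strand, across an exon junction), chosen as the stretch with the most distinct sequences. Capitals mark bases that differ from Mup7.
Mup7: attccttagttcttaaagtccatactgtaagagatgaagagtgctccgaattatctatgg
Mup17: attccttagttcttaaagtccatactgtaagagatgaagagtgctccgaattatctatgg
Mup19: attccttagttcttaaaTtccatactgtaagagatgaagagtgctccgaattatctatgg
Mup10: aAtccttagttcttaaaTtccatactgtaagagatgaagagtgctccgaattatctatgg
Mup1: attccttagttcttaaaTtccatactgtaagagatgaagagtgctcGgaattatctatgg
Mup11: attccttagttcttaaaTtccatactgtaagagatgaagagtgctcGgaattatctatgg
Mup15: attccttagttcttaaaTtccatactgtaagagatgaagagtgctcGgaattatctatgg
Mup20: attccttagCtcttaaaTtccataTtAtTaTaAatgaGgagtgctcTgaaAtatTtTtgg
Mup21: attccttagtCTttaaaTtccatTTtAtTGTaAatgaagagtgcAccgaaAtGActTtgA
Mup3: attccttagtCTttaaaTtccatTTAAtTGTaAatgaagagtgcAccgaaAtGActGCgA
Even in this most varied stretch Mup7 and Mup17 were the same, and so were Mup1, Mup11 and Mup15, while Mup20 differed from Mup7 at 12 bases, Mup21 at 16 and Mup3 at 18.

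Over whole transcripts, 97.8% of the stretches of 100 bases of Mup3, 95.5% of those of Mup21 and 61.2% of those of Mup20 occurred in no transcript of another gene. For the central members the share was 44.3% in Mup1, 40.6% in Mup17, 29.4% in Mup11, 26.6% in Mup10, 23.9% in Mup7, 2.7% in Mup15 and 0.0% in Mup19. Levels of Mup3 and Mup21, and to a lesser degree Mup20, can thus be read as single genes, but the split of counts among central members depends on how the authors' counting placed shared reads, and values of Mup15 and Mup19 in particular are uncertain as single genes. None of the shared stretches of 100 bases of the 10 genes occurred in a transcript outside the Mup family. The sum over the family thus does not depend on how shared reads were divided within it. It would miss reads that were dropped for fitting several places. Some pseudogenes in the sum do share such stretches with transcripts outside the family, 101 for Mup-ps16 and 76 for Mup-ps1, so their reads may be divided with other genes.

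Taken as a family, Mup transcripts made up a much smaller part of liver RNA in each of the 3 other groups than in WT chow. Summed over all Mup genes and pseudogenes, they held 2.255%, 2.068%, 1.802% and 2.385% of all counts in the 4 WT chow libraries. In WT CDAHFD they held 0.554%, 0.673% and 0.561%, in KO chow 0.635% and 0.321%, and in KO CDAHFD 0.5005%, 0.598% and 0.3565%. The lowest WT chow library stood above the highest library of any other group. The 10 genes described took 95.2% ± 1.75 (SD, n = 4) of these Mup counts in WT chow and between 97.9% and 99.5% on average elsewhere.

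**Figure D1:**
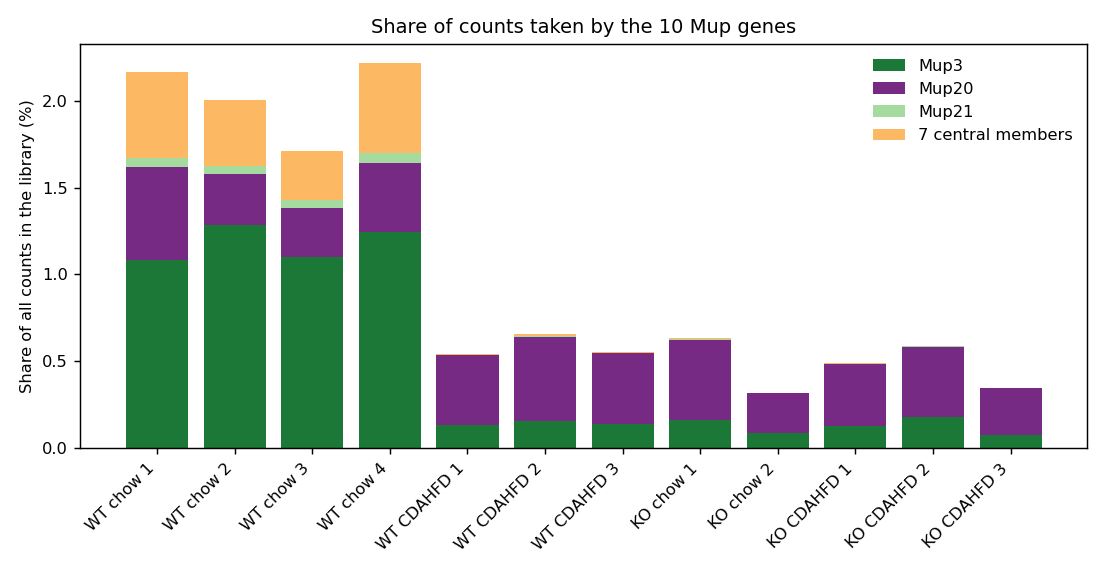
Share of all counts (%) held by the 10 Mup genes in each of the 12 libraries, as stacked bars for Mup3, Mup20, Mup21 and the 7 central members together. The bar falls from 1.71% to 2.22% in WT chow to 0.319% to 0.655% in the other groups, the part of Mup20 stays of similar height, and the central members are barely visible outside WT chow.

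The make-up of the family differed as well as its amount. In WT chow, Mup3 gave 58.7% ± 6.93 (SD, n = 4) of the counts of the 10 genes, the central members 20.4% ± 3.27 and Mup20 18.3% ± 4.38. In WT CDAHFD, Mup20 gave 73.8% ± 0.290 (SD, n = 3), in KO chow 72.5% ± 1.404 (n = 2) and in KO CDAHFD 73.4% ± 4.91 (n = 3), while the central members gave 0.939% ± 0.667, 0.0746% ± 0.0504 and 0.538% ± 0.212. For each Mup3 count there were 0.322 ± 0.119 Mup20 counts in WT chow and on average 2.998, 2.74 and 2.95 in WT CDAHFD, KO chow and KO CDAHFD.

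Compared per kilobase of exon, which allows levels of different genes to be set side by side, Mup3 ranked first in WT chow at 14228 ± 1736 CPM per kb, ahead of Mup20 at 5167 ± 1489 and Mup7 at 3424 ± 1066 (SD, n = 4). Ranges over libraries of Mup20 (3869 to 6943) and Mup7 (2714 to 5011) overlapped, but Mup20 was above Mup7 within each WT chow library. Mup21 (986.3 ± 170.2), Mup15 (775.9 ± 561.8), Mup11 (425.7 ± 178.0) and Mup17 (318.5 ± 122.0) followed with overlapping ranges from one to the next, then Mup1 (66.8 ± 29.0) and Mup19 (45.6 ± 18.0), and Mup10 was lowest at 0.840 ± 0.123. In the other 3 groups Mup20 ranked first, followed by Mup3, Mup21 and Mup7 in this order, with group means of 3156 to 4032 CPM per kb for Mup20 and 1005 to 1167 for Mup3.

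**Figure D2:**
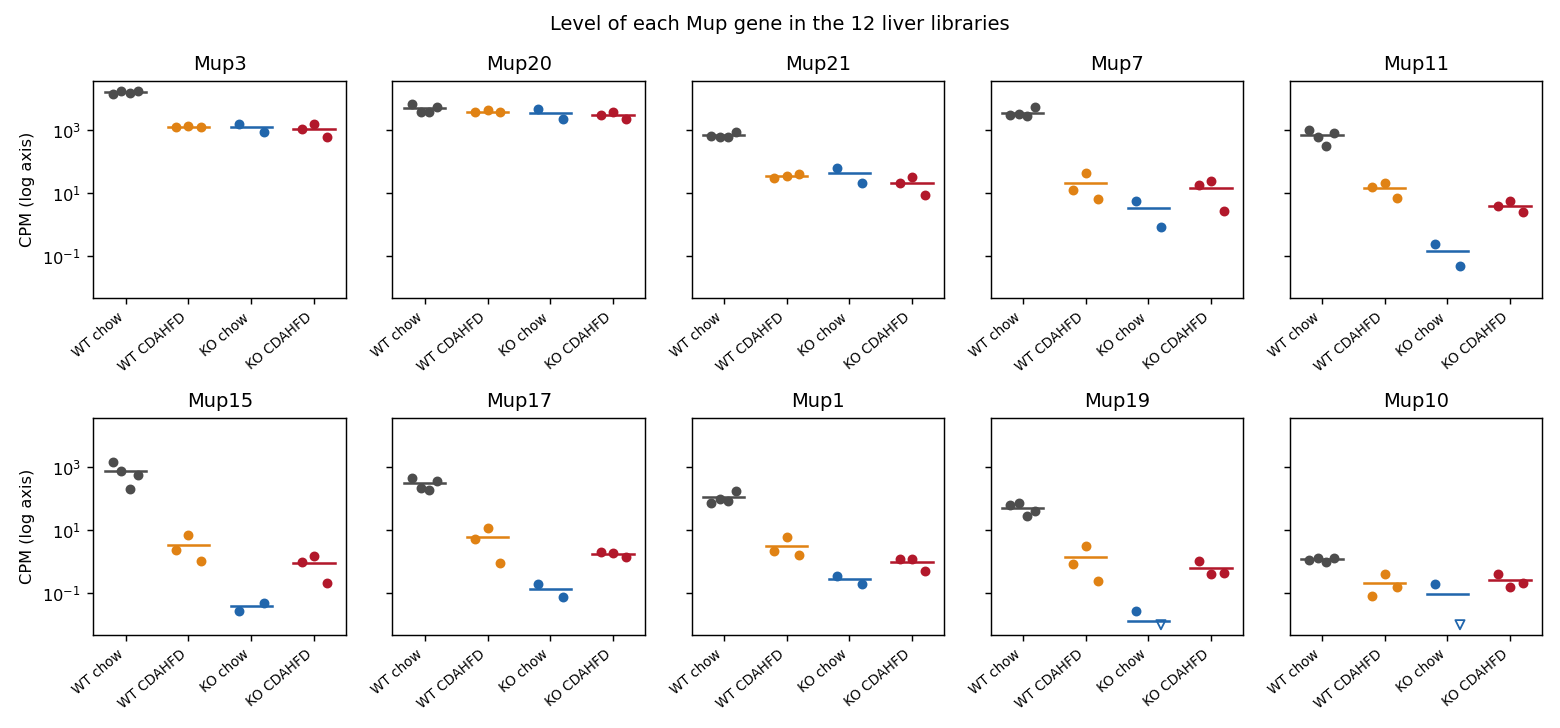
CPM (log axis) of each of the 10 Mup genes in every library, by group, with a line at the group mean and an open triangle at the foot of the axis for a count of 0. Mup20 stays at 2177 CPM or more in all 12 libraries, Mup3 and Mup21 form 1 high group and 3 low ones, and Mup11, Mup15 and Mup17 show 3 steps with KO chow lowest.

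Mup20 was the member that differed least. Its CPM was 6443, 3718, 3590 and 5430 in WT chow, 3562, 4105 and 3557 in WT CDAHFD, 4481 and 2226 in KO chow, and 3025, 3585 and 2177 in KO CDAHFD. The first 3 groups overlapped, and the highest KO CDAHFD library was just below the lowest WT chow library. The log2 fold change against WT chow was -0.36 (SE 0.27) in WT CDAHFD, -0.52 (SE 0.31) in KO chow and -0.71 (SE 0.27) in KO CDAHFD. These signs depend on the scaling: with library size as the only scaling, which moved the median of all genes by 0.51, 0.40 and 0.57, they were 0.20, -0.11 and -0.12.

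Mup3, whose transcript alone made up most of the WT chow total, was at 13137, 16423, 14157 and 17063 CPM in WT chow. It was at 1209, 1308 and 1222 CPM in WT CDAHFD, at 1542 and 863.7 in KO chow, and at 1065, 1573 and 582.9 in KO CDAHFD. The WT chow libraries were well apart from the others, which overlapped among themselves. The level was 12.2-fold lower in WT CDAHFD (log2 fold change -3.61, SE 0.32), 12.6-fold lower in KO chow (-3.66, SE 0.38) and 14.2-fold lower in KO CDAHFD (-3.82, SE 0.32).

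Mup21, the neighbour and closest relative of Mup3, was at 632.0, 608.7, 591.4 and 838.7 CPM in WT chow, at 29.9, 35.9 and 39.2 in WT CDAHFD, at 64.3 and 20.5 in KO chow and at 20.6, 33.2 and 8.71 in KO CDAHFD. Its order of groups was that of Mup3 apart from the KO chow mean, and the log2 fold change was -4.25 (SE 0.47) in WT CDAHFD and -3.98 (SE 0.55) in KO chow, and the level was 32.1-fold lower in KO CDAHFD. Over the 12 libraries its log2 CPM followed that of Mup3 with r = 0.99, and r was 0.95 after subtraction of the group means, libraries here sharing group and depth.

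Mup7, the most abundant central member, was at 3042, 3128, 2804 and 5176 CPM in WT chow. It was at 12.3, 43.6 and 6.36 in WT CDAHFD, at 5.68 and 0.849 in KO chow and at 18.2, 23.5 and 2.78 in KO CDAHFD. No library outside WT chow came near the lowest WT chow library. The mean was 170.3-fold lower in WT CDAHFD, 1091-fold lower in KO chow and 238.9-fold lower in KO CDAHFD.

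Mup11 separated the 4 groups without overlap. The WT chow libraries were at 968.7, 614.2, 310.4 and 790.2 CPM, those of WT CDAHFD at 16.1, 20.9 and 6.905, those of KO CDAHFD at 3.78, 5.64 and 2.59, and those of KO chow at 0.245 and 0.0485, from 9 counts and 2 counts. Relative to WT chow it was 45.8-fold lower in WT CDAHFD, 167.8-fold lower in KO CDAHFD and 4622-fold lower in KO chow.

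Mup15 had the widest range. The WT chow libraries were at 1429, 712.7, 198.9 and 530.4 CPM and those of WT CDAHFD at 2.23, 6.72 and 1.005. KO CDAHFD followed with 0.970, 1.497 and 0.214 CPM, and KO chow with 0.0272 and 0.0485. The KO chow libraries held 3 Mup15 counts in all against 76990 in WT chow, a ratio of 18312 per unit of scaled depth with a 95% counting interval of 6266 to 88800, which leaves out the spread between mice. Mup17 and Mup1 showed the same order of groups, Mup17 with means of 295.2 CPM in WT chow, 5.88 in WT CDAHFD, 1.75 in KO CDAHFD and 0.132 in KO chow, and Mup1 with means of 105.9, 3.18, 0.964 and 0.274.

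Mup19 was read 1 time in the KO chow libraries together and 5377 times in WT chow, a ratio of 3837 with a counting interval of 688.3 to 151574. Its mean level was 48.6 CPM for WT chow, 1.402 for WT CDAHFD and 0.624 for KO CDAHFD. Mup10 was close to the limit of detection everywhere, with 28 to 41 counts per library in WT chow, 4 to 21 in WT CDAHFD, 7 and 0 in KO chow and 6 to 16 in KO CDAHFD, and its log2 fold changes against WT chow were -2.41, -3.63 and -2.18. Reads shared with other central members are not told apart in any of these values.

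**Figure D3:**
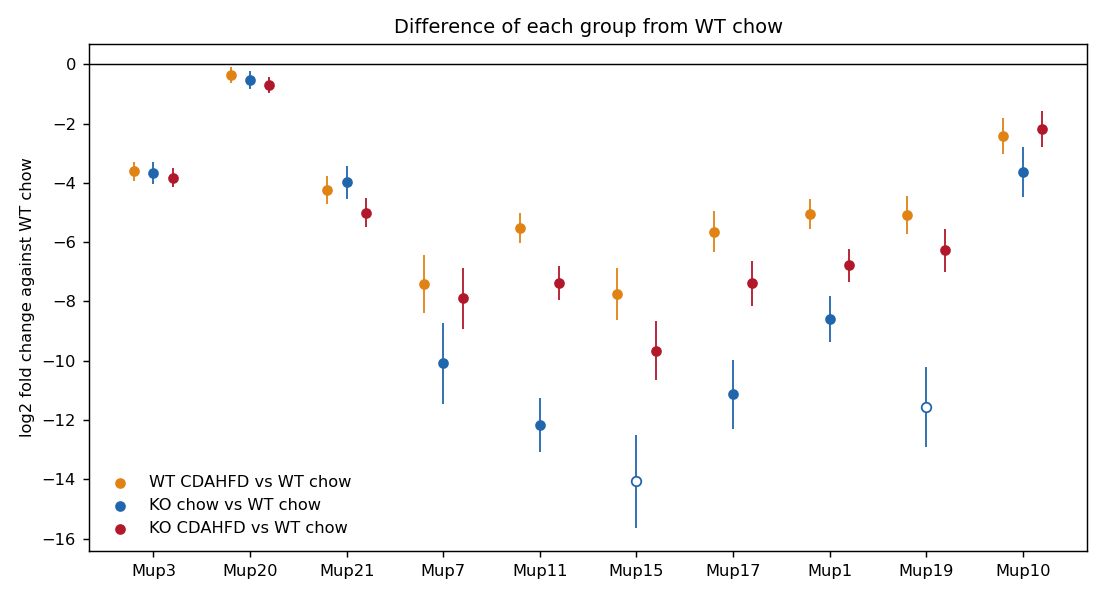
Log2 fold change (± SE of the fit) of each Mup gene in WT CDAHFD, KO chow and KO CDAHFD against WT chow, with open circles for Mup15 and Mup19 in KO chow, whose size rests on 3 counts and 1 count. Mup20 lies near 0, Mup3 (-3.61 to -3.82) and Mup21 lie lower and the central members other than Mup10 lie between -5.05 and -14.07.

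The median log2 fold change over the 10 genes was -5.07 for WT CDAHFD, -9.34 for KO chow and -6.53 for KO CDAHFD, against medians over all genes of -0.05, 0.00 and -0.04.

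Summed into a single row, all Mup reads were at 27389 ± 3978 CPM in WT chow (n = 4), 5182 ± 441.1 in WT CDAHFD (n = 3), 4623 ± 2118 in KO chow (n = 2) and 4119 ± 1234 in KO CDAHFD (n = 3). The log2 fold change against WT chow was -2.40 (SE 0.26), -2.57 (SE 0.31) and -2.73 (SE 0.27). Mup3 and Mup20 together gave 77.1% of the counts of the 10 genes in WT chow and 98.4% to 99.1% on average elsewhere, so the sum mainly follows this pair. With library size as the only scaling the log2 fold changes of the sum were -1.84, -2.15 and -2.13.

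The position of a gene in the cluster and its difference on CDAHFD can be set side by side. Among the central members log2 fold changes in WT CDAHFD against WT chow ran from -2.41 for Mup10 to -7.75 for Mup15, and Mup7, which starts 109.7 kb from the first gene of the cluster, had -7.41. Mup20 and Mup3 are neighbours, starting at 2093.4 and 2126.7 kb, with -0.36 and -3.61. Of the 12 other Mup genes, 10 had enough counts to be tested, and 9 of these were called lower in each of the 3 comparisons with WT chow, where 25.0% (WT CDAHFD), 17.0% (KO chow) and 25.4% (KO CDAHFD) of all genes were. They share reads with the genes that had been picked on these comparisons, so nothing is read from this count. Mup14, with the most counts among them at 477.4 to 1796 CPM in WT chow, was at 23.9 to 83.7 in WT CDAHFD, 1.36 and 3.89 in KO chow and 7.23 to 24.2 in KO CDAHFD. Mup22 went from 67.9 to 97.4 CPM in WT chow to 22.5 to 29.8 in WT CDAHFD, though no stretch of 100 bases of its transcript is its own. Mup6, at the other end of the cluster from Mup20, was the exception at 0.275 to 1.32 CPM in WT chow and 1.29 to 1.84 in WT CDAHFD. Mup4 and Mup5 had at most 1 count in any library.

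**Figure D4:**
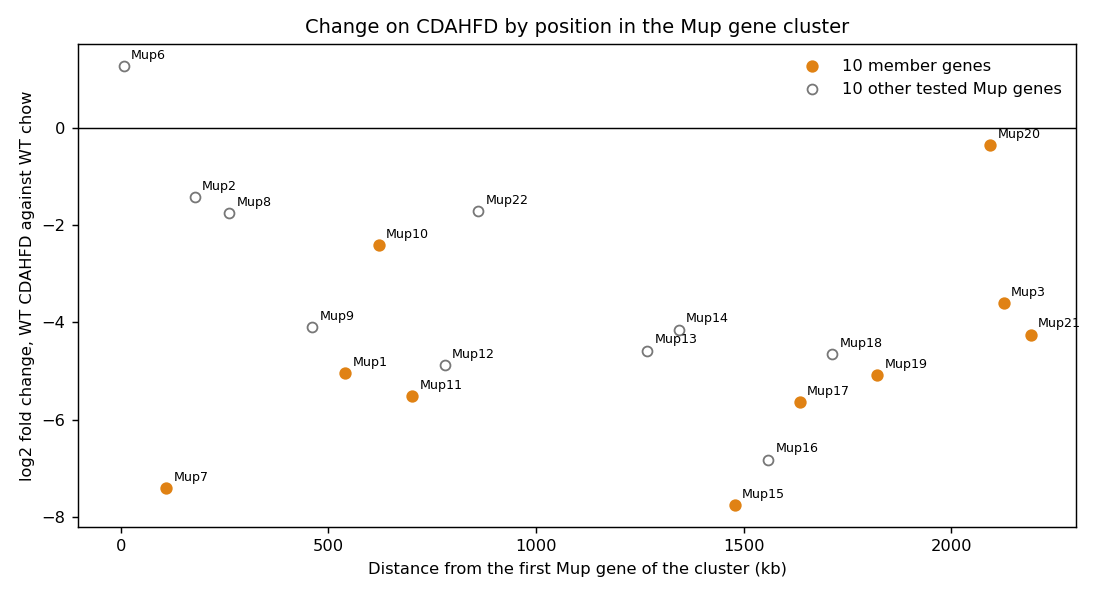
Log2 fold change in WT CDAHFD against WT chow of the 10 Mup genes (filled) and the 10 other tested Mup genes (open), by distance in kb from the first Mup gene of the cluster. Mup6 at the near end (1.27) and Mup20 near the far end (-0.36) stand highest, and Mup7 (-7.41), Mup16 (-6.82) and Mup15 (-7.75) lowest.

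Promoter sequence was at hand for 8 of the 10 genes. Shown are the 250 bases before the RefSeq start (GRCm38.p6) of the central member Mup15, whose levels differed most, and of the distal pair Mup3 and Mup21, all on the minus strand and written 5′ to 3′. Capitals mark TGTTCT, a half-site of the glucocorticoid receptor, searched on both strands, and TATATAAG, a TATA box, searched on the gene's strand.
Mup15, chr4:61439705-61439954: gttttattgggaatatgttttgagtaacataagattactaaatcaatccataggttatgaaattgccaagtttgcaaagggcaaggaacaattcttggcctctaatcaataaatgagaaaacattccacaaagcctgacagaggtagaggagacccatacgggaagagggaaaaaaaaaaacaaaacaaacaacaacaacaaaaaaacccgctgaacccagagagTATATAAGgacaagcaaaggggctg
Mup3, chr4:62087318-62087567: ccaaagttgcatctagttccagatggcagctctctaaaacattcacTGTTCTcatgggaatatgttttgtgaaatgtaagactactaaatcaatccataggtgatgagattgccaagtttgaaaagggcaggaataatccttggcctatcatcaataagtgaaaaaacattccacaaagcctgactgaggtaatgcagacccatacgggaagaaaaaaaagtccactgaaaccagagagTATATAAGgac
Mup21, chr4:62150842-62151091: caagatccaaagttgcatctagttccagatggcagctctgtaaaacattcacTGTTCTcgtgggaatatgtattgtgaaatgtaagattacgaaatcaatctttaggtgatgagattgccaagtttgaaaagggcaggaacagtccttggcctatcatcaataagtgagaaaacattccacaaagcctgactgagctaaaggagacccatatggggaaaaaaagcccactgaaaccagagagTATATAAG
The upstream sequences of Mup15 and Mup17 were 97.6% identical and those of Mup3 and Mup21 89.1%, whereas Mup15 and Mup3 shared 59.6% and Mup15 and Mup21 56.1%. Annotated starts differ by some bases between genes, which lowers these figures, and the Mup7 start lies further upstream than the rest. TGTTCT was found in Mup3 and Mup21 and in none of the 6 central members with a sequence, and in 16.1% of 32851 promoters of the same length. The sequences of Mup10, Mup15, Mup17 and Mup19 begin inside or past the matching place, so that place was not fully searched in them. Mup7 and Mup11 cover the place and lack TGTTCT. TATATAAG was found in 6 of the 8, beside 0.642% of all promoters. It was not found in Mup7 and Mup11. The Mup11 sequence stops inside the place matching the TATATAAG of Mup15 and the Mup7 sequence before it, so that place was not fully searched in them. TTCNNNGAA, the motif of STAT5, was found in 0 of the 8 and in 7.02% of all promoters, and a direct repeat of AGGTCA with 1 free base between the copies, as bound by PPARα with RXR, in 0 of the 8 and in 0.0335% of all. Both were searched on both strands. These letters were searched only in these 250 bases.

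KO CDAHFD with WT CDAHFD was not itself a comparison used to pick the genes. It asks whether loss of hepatocyte PPARα alters Mup levels when the diet is the same. The WT CDAHFD levels were known when the genes were picked, and KO CDAHFD is also among the groups other than WT chow. The p-values below are thus not fully free of that choice. No member differed here past the threshold: 0 of 10 were called by edgeR's quasi-likelihood test, beside 0.357% of all genes, and 0 of 10 by DESeq2, while 4 of 10 had an unadjusted p under 0.05, beside 8.77% of all genes. Mup11 came nearest. With 16.1, 20.9 and 6.91 CPM in WT CDAHFD and 3.78, 5.64 and 2.59 in KO CDAHFD it did not overlap, and it was 3.66-fold lower (log2 fold change -1.87, SE 0.47, edgeR adjusted p = 0.158). Mup1 did not overlap either, at 2.15, 5.83 and 1.55 against 1.16, 1.23 and 0.499 CPM, and was 3.32-fold lower (-1.73, SE 0.52, edgeR adjusted p = 0.300). These 2 of 10 compare with 11.3% of all genes that were lower in all KO CDAHFD libraries. The 4 genes with an unadjusted p under 0.05 were Mup1, Mup11, Mup15 and Mup17. All are central members that share reads and are thus not separate observations, so nothing is read from either count.

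Mup15 and Mup17 had differences of similar size with overlapping libraries, at -1.92 (SE 0.83, edgeR adjusted p = 0.527) and -1.75 (SE 0.64, edgeR adjusted p = 0.433). The abundant genes differed little, with -0.22 (SE 0.29) for Mup3, -0.35 (SE 0.28) for Mup20 and -0.49 (SE 0.77) for Mup7, and their edgeR adjusted p were 0.885, 0.778 and 0.905. The summed row differed by -0.33 (SE 0.26, edgeR adjusted p = 0.775). As a share of counts, all Mup rows held 0.596% of the WT CDAHFD libraries and 0.485% of the KO CDAHFD ones on average, and an exact two-sided permutation test of the 3 against 3 libraries gave p = 0.3, where the smallest p this design allows is 0.1. Calls of the scarcer genes depended on the filter: without a filter on low counts Mup1, Mup11 and Mup17 were called lower (edgeR adjusted p = 0.00337, 0.000191 and 0.0191), in a fit that called 215 genes in place of 62.

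**Figure D5:**
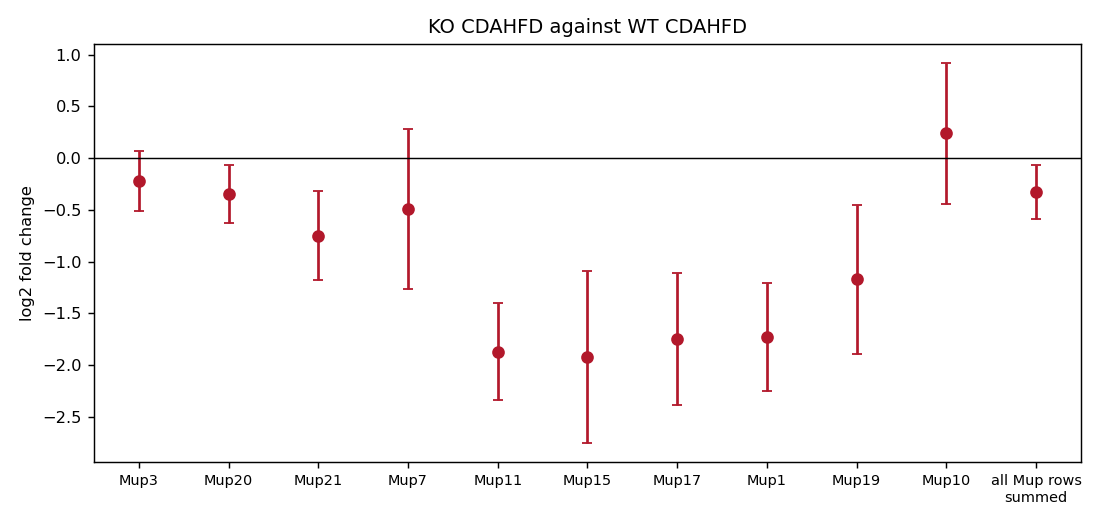
Log2 fold change (± SE of the fit) of each Mup gene and of the summed Mup row in KO CDAHFD against WT CDAHFD. Mup3 (-0.22), Mup20 (-0.35) and the sum (-0.33) lie near 0, Mup1, Mup11, Mup15 and Mup17 between -1.73 and -1.92, and none passed the threshold.

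KO chow, with 2 libraries, had the lowest group mean of all 7 central members, whereas Mup20, Mup3 and Mup21 had theirs in KO CDAHFD. Between KO chow and WT CDAHFD, log2 fold changes were -6.66 for Mup11, -6.46 for Mup19, -6.32 for Mup15, -5.48 for Mup17 and -3.55 for Mup1, and -0.05 for Mup3, -0.16 for Mup20 and 0.27 for Mup21. All libraries were lower in KO chow for 6 of the 10 genes, beside 24.1% of all genes. Between KO CDAHFD and KO chow, the libraries of Mup1, Mup11, Mup15, Mup17 and Mup19 were all higher in KO CDAHFD, 5 of 10 beside 19.9% of all genes, with log2 fold changes of 1.81 to 5.29, and Mup3 and Mup20 differed by -0.16 and -0.20. Both of these comparisons involve KO chow, and the gene choice had used it, so they are descriptions. The genes counted in them are all central members that share reads, and are not separate observations.

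The second KO chow library was the lower one for 9 of the 10 genes, Mup15 being the exception, and it moved the family values: the summed row against WT chow was -2.16 without it and -3.11 without the first. It also differed in genes of the circadian clock, which follow the hour of sampling. A score of 6 genes peaking towards evening less 4 peaking towards morning was -4.14, -3.88, 2.27 and 2.20 for the WT chow libraries and -3.35 and 0.42 for KO chow. WT CDAHFD scored -1.89, -2.62 and -2.53, and KO CDAHFD -2.24, -2.10 and 3.39. The third KO CDAHFD library, with the highest score, was the lowest of its group for Mup1, Mup3, Mup7, Mup11, Mup15, Mup17, Mup20 and Mup21. In WT chow, the libraries with high and low scores overlapped for Mup3 (14157 and 17063 against 13137 and 16423 CPM). Mup15 (198.9 and 530.4 against 1429 and 712.7) and Mup19 (26.9 and 38.7 against 59.9 and 68.8) were lower with high scores, without overlap. The remaining members overlapped. Mup14, outside the 10 genes, was higher with high scores (909.0 and 1796 against 691.0 and 477.4). Without the 4 libraries of highest score, Mup3 in KO CDAHFD against WT CDAHFD was 0.08 and the summed row -0.12. Of these 4, only the third KO CDAHFD library belongs to this comparison, and its removal alone gave the same 0.08 and -0.12. The part of sampling time in these values was not tested beyond this.

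Genes of the hormone pathways named above were measured in the same libraries. Ghr, the growth hormone receptor, was at 820.5, 886.8, 896.3 and 1046 CPM in WT chow and at 248.2 to 332.7 in all other libraries, a log2 fold change of -1.67, -1.63 and -1.83 in WT CDAHFD, KO chow and KO CDAHFD. Stat5b was at -0.45, -0.93 and -0.91. Of 12 genes of the growth hormone and STAT5 axis, 4, 5 and 4 were called lower, beside 25.0%, 17.0% and 25.4% of all genes, and 1, 0 and 2 higher. Igf1 and Igfals, hepatic products of growth hormone signalling, were among those lower, with Igfals at -1.64, -1.24 and -1.46. The axis was not lower throughout, and the median log2 fold change of the 12 genes was 0.01, -0.57 and -1.05. Mean CPM of Cish was 21.4 in WT chow and 32.2, 14.4 and 8.93 in the other groups. Its libraries ran from 2.68 to 61.0 CPM within WT chow and from 5.32 to 59.6 within WT CDAHFD, so these means set no order. For Ptpn1 the mean CPM was 37.9 in WT chow and 57.5, 44.8 and 51.4 in the other groups. Of 10 genes of steroid and thyroid hormone action 5 were called lower in each comparison, beside the same shares of all genes, among them Thrb, the main thyroid hormone receptor of liver, at -1.32, -1.38 and -1.47. Nr3c1, the glucocorticoid receptor, was at -0.47, -0.55 and -0.55.

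Other genes with a sex difference in mouse liver were set beside the Mup genes, in lists that had been drawn up with Mup values known. All 14 male-biased genes were called lower in each of the 3 comparisons with WT chow, beside 25.0%, 17.0% and 25.4% of all genes. Hsd3b5, a male-specific steroid dehydrogenase, was at 477.9 to 741.2 CPM in WT chow and at 0.238 to 7.69 in the other libraries, and Cyp7b1, an oxysterol hydroxylase, at log2 fold changes of -3.87, -3.47 and -4.36. Of 18 female-biased genes 12 were tested, and 8, 6 and 8 were called higher, beside 26.1%, 22.0% and 26.9% of all genes, and 2, 1 and 1 lower. Cyp2a4, a female-biased steroid hydroxylase, went from 1 to 11 counts per library in WT chow to 236 to 318 in WT CDAHFD, 2531 and 12552 in KO chow and 1159 to 6164 in KO CDAHFD. Cyp2c69 went the other way, from 36 to 351 counts per library in WT chow to 0 to 11 in the other groups, too few to size the difference. The libraries were of male mice by their Y-linked genes, whose summed CPM was 135.6 to 271.6, and Xist was at most 0.167 CPM. In KO CDAHFD against WT CDAHFD, where no Mup gene was called, Cyp4a12a (-3.68) and Cyp4a12b (-3.64), male-biased fatty acid hydroxylases, were called lower and Cyp2a4 (3.55) higher.

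Of 12 genes of secreted plasma proteins, 11, 9 and 10 were called lower in WT CDAHFD, KO chow and KO CDAHFD, beside 25.0%, 17.0% and 25.4% of all genes. Their median log2 fold changes were -1.22, -0.72 and -1.15, beyond those of Mup20 (-0.36, -0.52 and -0.71) and short of those of Mup3 (-3.61, -3.66 and -3.82). Alb was at -0.86, -0.20 and -0.94, and Trf and Ahsg were at 0.11 and 0.27 in KO chow. Against 100 counts of these 12 genes there were 19.3 ± 2.94 Mup counts for WT chow (SD, n = 4), 6.52 ± 1.199 for WT CDAHFD (n = 3), 4.03 ± 2.02 for KO chow (n = 2) and 5.25 ± 0.905 for KO CDAHFD (n = 3). By this measure too the WT chow libraries (16.2 to 23.0) were all above the others (2.60 to 7.90). Among hepatocyte transcription factors Hnf4a was at -0.80, -0.94 and -0.97, and Zhx2, known to act on several liver genes, at -0.36, -0.54 and -0.50. Of the other lipocalins, Obp2a had 17 to 152 counts per library in WT chow and 0 to 3 in each other library, too few to size the difference. The plasma lipocalins Rbp4, Apom and Ambp were at -0.59 to -1.19, and Lcn2, an acute phase lipocalin of injured liver, was higher at 5.78, 4.24 and 5.21. Mean CPM of Orm2, in the same list, was 13.7 in WT chow and 145.1, 22.5 and 109.5 in WT CDAHFD, KO chow and KO CDAHFD. For Orm3 it was 0.318 and 4.11, 0.250 and 2.67.

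The genes most like the summed Mup row over the 12 libraries, by Pearson r of log2 CPM among genes with a mean count of at least 50, were Cyp7b1 (r = 0.990), C8a (0.988), Hsd3b5 (0.988), Aadat (0.985) and Cyp2d40 (0.984). C8a, a complement component, went from 1396 CPM in WT chow to 581.4, 556.0 and 463.6 in WT CDAHFD, KO chow and KO CDAHFD. Aadat, an enzyme of lysine and tryptophan breakdown, went from 184.7 to 52.3, 49.4 and 44.8, and Cyp2d40 from 129.8 to 25.0, 21.6 and 24.8. These values describe 12 libraries in 4 groups that share the step from WT chow to the rest.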

How the data were processed

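Per the labels, the authors checked reads with FastQC 0.11.5, aligned them to GRCm38 with STAR 2.7.3a and deposited raw counts per Ensembl gene, without normalization; the counting program and annotation release are not given in the sources used here. Shared reads of near-identical Mup genes can be split or dropped at that step. Symbols came from GENCODE M21. Genes passing edgeR's filterByExpr (17358) were fitted with edgeR 4.0.16 in R 4.3.3 (TMM, glmQLFit with earlier defaults, a mean for each of 4 groups over 12 libraries), with Benjamini-Hochberg adjustment over these genes and a threshold of 0.05. The SE is the log2 fold change divided by the square root of F. On simulated data 98.5% of 200 genes changed 4-fold between KO CDAHFD and WT CDAHFD were recovered among 17358, with 5.288% of calls false. These 200 were drawn from genes with a mean over 5 CPM across the 4 groups and simulated at that mean. Mup1, Mup10, Mup15 and Mup19 were below 5 CPM on average in both CDAHFD groups, so this recovery does not apply to them. Nor does it apply to Mup7, Mup11 and Mup17, whose mean across the 4 groups came mostly from WT chow. Their WT chow means were 3537, 670.9 and 295.2 CPM. For WT CDAHFD these were 20.75, 14.62 and 5.88, and for KO CDAHFD 14.82, 4.005 and 1.75. Mup11, 3.66-fold lower (SE 0.47), was not called. The recovery is a rate over the 200 genes, not for any single member. Members and lists were chosen with earlier results of these data known. All members, the other Mup genes, the targeted gene, genes leading the lists and the 5 genes most like the Mup sum were to be named. Sequences were compared with Biopython 1.88. Alternatives were other scalings, no filter, DESeq2 1.42.0, a replicate block, the CDAHFD groups alone, each library left out and, added after seeing the data, a clock score covariate and 4 libraries left out. Counting intervals (95%, exact) cover counting error only, and a count of 0 allows up to 3 counts. Replicate numbers did not pair the libraries. KO chow replicate 2 is numbered so by its title, but its description and count column carry a 3.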

Additional observations from a re-analysis of the deposited data

Results flagged for a closer look

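Mup7 in WT chow replicate 4, at 5176 CPM, and Mup21 in the same library, at 838.7 CPM, stood far above the other 3 WT chow libraries for the width of their range (gap of 0.863 and 0.836 of the range, past the 95% limit of Dixon's test). Chance gives about 1 such value in 20 groups, and 11 measures were looked at.

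For 5 central members the difference between CDAHFD and chow pointed in opposite directions in the genotypes. All WT CDAHFD libraries were below all WT chow libraries, and all KO CDAHFD libraries above both KO chow libraries. The log2 fold changes in WT and in KO were -5.05 and 1.81 for Mup1, -5.52 and 4.78 for Mup11, -7.75 and 4.41 for Mup15, -5.64 and 3.73 for Mup17, and -5.09 and 5.29 for Mup19. This difference between genotypes was not tested, since the genes had been chosen on these groups, and in KO chow the 5 genes had 0 to 13 counts per library.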

How the results depend on the processing

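In KO CDAHFD against WT CDAHFD, 0 of 10 members were called under RLE scaling, library size alone, DESeq2, the CDAHFD groups alone, the clock covariate, the removal of the 4 libraries with the highest clock score and each removal of 1 library (0 to 0). Of those 4 libraries, only KO CDAHFD replicate 3 belongs to this comparison. With no low-count filter 3 were called, and with the replicate block 1 (Mup11, edgeR adjusted p = 0.0227). Same-numbered libraries share only a number: of 15 same-numbered pairs 6 correlated over 0.1 (-0.66 to 0.48), and 3 of 12 libraries correlated best with their own number. The summed row kept its direction there (-0.55 to -0.12 with 1 library left out, -0.36 with the replicate block).

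With library size only, the summed row against WT chow was -2.15 for KO chow, -1.84 for WT CDAHFD and -2.13 for KO CDAHFD. With TMM scaling and 1 library left out, the same 3 ran from -3.11 to -2.16, -2.47 to -2.29 and -2.96 to -2.52, KO chow against WT CDAHFD from -0.74 to 0.24, and KO CDAHFD against KO chow from -0.57 to 0.41; the KO chow libraries set the ends of all but the WT CDAHFD and KO CDAHFD ranges against WT chow. Without the 4 libraries of highest clock score, KO chow was -2.13 against WT chow and 0.24 against WT CDAHFD. In this setting KO chow rests on its replicate 1 alone. The share of counts in KO CDAHFD less that in WT CDAHFD was -0.167 to -0.0466 percentage points with 1 library left out.

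In KO CDAHFD against WT CDAHFD, Mup3 turned to 0.08 and Mup7 to 0.00 without the 4 libraries. This removes only KO CDAHFD replicate 3 from the 2 groups compared. With 1 library left out, Mup3 ran from -0.60 to 0.08 and Mup7 from -0.99 to 0.67, each lowest without KO CDAHFD replicate 2, and Mup10 from -0.20 to 1.11 and Mup19 from -1.77 to 0.20, each lowest without KO CDAHFD replicate 1. Mup3 was highest without KO CDAHFD replicate 3, the others without WT CDAHFD replicate 2. The cause was not tested. Depth limits Mup10, Mup15 and Mup19 in KO chow, where 0 to 7 counts were read.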
